A study of Mus musculus with 6 samples.

Results

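This account covers the genes for antigen presentation on major histocompatibility complex (MHC) class II in the gastrocnemius muscle of *Hras*G12V mice. The 8 genes were chosen by name: *H2-Aa*, *H2-Ab1*, *H2-Eb1*, *H2-DMa*, *H2-DMb1*, *Cd74*, *Ciita* and *Ctss*, of 23997 gene symbols in the files. All 8 symbols were found. Muscle from 3 *Hras*G12V mice (mice 2276, 2278 and 2279) and 3 wild-type (WT) littermates (mice 2277, 2280 and 2281) was sequenced at 21 days of age, with 1 mRNA library per mouse. The *Hras*G12V mice were heterozygous, HrasG12V/+, and carried Caggs-Cre. The WT mice, genotype Hras+/+ in the labels, had no Cre and still carried the floxed allele before recombination (Caggs-Cre-/HrasflG12V/+). Caggs-Cre is driven by a broadly active promoter, so the G12V allele was not limited to muscle fibers, and the effect of the allele and of the Cre transgene cannot be told apart. The mice were of a mixed SWR/J, 129S1/SvImJ and C57BL/6J background, untreated, and the sources used here do not give the H2 haplotype of each mouse.

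MHC class II molecules are pairs of an alpha and a beta chain that show peptides from engulfed proteins to CD4+ T cells. They are made by B cells, dendritic cells and macrophages, and resting muscle fibers make little of them. The invariant chain, encoded by *Cd74*, holds the new pair together and fills its groove until cathepsin S (*Ctss*) cuts it down to a short peptide. The DM molecule (*H2-DMa* with *H2-DMb1* or *H2-DMb2*) then exchanges this peptide for others, and the DO molecule (*H2-Oa* with *H2-Ob*), found chiefly in B cells, holds DM back. *Ciita* encodes the coactivator that switches on the genes for the class II chains. It binds no DNA itself and sits on a complex of RFX and NF-Y factors at paired sequences named the X and Y boxes, ahead of those genes.

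Of the 8 genes, 5 lie together. *H2-DMa* (chr17:34119541-34139101), *H2-DMb1* (chr17:34153072-34160230), *H2-Ab1* (chr17:34257689-34269419) and *H2-Eb1* (chr17:34305867-34316674) are on the plus strand and *H2-Aa* (chr17:34282744-34287823) is on the minus strand of chromosome 17 (GRCm38, GENCODE vM21). *Ciita* (chr16:10480059-10528418), *Ctss* (chr3:95526786-95556403) and *Cd74* lie elsewhere. All 8 are protein coding. The stretches below show letters that some of the class II promoters have in common, for genes with the whole pair outside exons. They were taken from RefSeq promoters on GRCm38.p6, from the bases before the annotated start, and touch no annotated exon. Capitals mark an X box core, searched as CTNGNAAC, followed by a Y box core, searched as TGATTGG.
*H2-Aa* (chr17:34287847-34287927, minus strand): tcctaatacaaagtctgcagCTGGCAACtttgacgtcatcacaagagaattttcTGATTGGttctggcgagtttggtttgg
*H2-Eb1* (chr17:34305753-34305832, plus strand): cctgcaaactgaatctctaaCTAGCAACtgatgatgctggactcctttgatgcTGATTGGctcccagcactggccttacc
*H2-Ob* (chr17:34238795-34238872, plus strand): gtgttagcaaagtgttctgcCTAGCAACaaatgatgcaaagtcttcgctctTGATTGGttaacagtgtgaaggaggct
The gap between the 2 cores was 26 bases in *H2-Aa*, 25 in *H2-Eb1* and 23 in *H2-Ob*. *H2-DMb1* held CTAGTAAC and TGATTGG with a gap of 26 bases, within a stretch that GENCODE counts as exon. In all 4 genes the X core began 84 to 97 bases before the start. Of 32851 RefSeq promoters, searched on both strands over 250 bases, 10.9% held CTNGNAAC and 7.23% held TGATTGG, while 24 (0.0731%), of 22 genes, held both in this order with a gap of at most 30 bases. The letters of the X core were chosen with these promoters in view. Of the 8 genes, 5 were searched, and *H2-DMa* and *Ctss* held neither motif. With other class II genes included, 4 of 9 searched held the pair: *H2-Oa* and *H2-DMb2* held TGATTGG alone, and *H2-Eb2* held both cores in the reverse order. The promoters of *Cd74*, *H2-Ab1* and *Ciita* were not analysed here.

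Levels are FPKM, in which the reads of a gene are divided by its length and by the depth of the library, as scaled between libraries by the authors. Differences between genotypes are log2 fold changes of FPKM + 0.1, which understates the change of low genes. They were tested with limma over the 13359 genes with a mean of at least 0.5 FPKM. The median FPKM of these genes was 6.39 to 6.64 in every library. Sums of FPKM were 413020 to 814013 and are not depths, and the files do not give the depth behind each value. The methods state only an approximate number of reads per sample. Of the muscle fiber genes used to check the tissue, *Mylpf* and *Pvalb* were at 10760 to 36114 FPKM in every library. *Acta1* and *Myh4* were listed at 0 in every library, *Ckm* in all but mouse 2278 and *Tnnt3* in mouse 2276 alone, so a value of 0 in these files can be a failed estimate. None of the 8 class II genes was listed at 0. By *Xist* and *Ddx3y*, WT mouse 2277 and *Hras*G12V mouse 2276 read as female and the other 4 as male.

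Class II transcripts were 3.16 to 14.9 times the WT mean in *Hras*G12V mice 2278 and 2279 and close to it in *Hras*G12V mouse 2276. The summed level of the 8 genes was 54.9 to 62.9 FPKM in WT mice. In *Hras*G12V mice 2276, 2278 and 2279 it reached 67.3, 408 and 287 FPKM. In mouse 2276 the genes were at 0.761 (*Ciita*) to 1.33 (*H2-Ab1*) times the WT mean, with 4 of the 8 above, 2 within and 2 below the range of the WT mice. The genotypes therefore differed mainly through 2 of 3 mice.

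The classical chains *H2-Aa* and *H2-Ab1* form the I-A molecule. *H2-Aa*, the alpha chain, had FPKM of 15.7, 12.7 and 14.9 in WT mice 2277, 2280 and 2281, and of 15.0, 96.7 and 73.9 in *Hras*G12V mice 2276, 2278 and 2279. Mouse 2276 lay inside the WT range, so the groups overlapped. The mean was 61.9 ± 42.2 (SD, n = 3) against 14.4 ± 1.55 FPKM (SD, n = 3). The log2 fold change, a difference of mean log values here and throughout and not the ratio of these means, was 1.72 (standard error 0.67, 95% interval 0.11 to 3.33, limma adjusted p = 0.481). *H2-Ab1*, the beta chain, was at 7.44, 7.09 and 6.81 FPKM in WT and 9.47, 48.8 and 36.3 FPKM in *Hras*G12V mice. The groups were apart, with mouse 2276 just above the WT range. The *H2-Ab1* log2 fold change was 1.84 (standard error 0.58, 95% interval 0.45 to 3.23, limma adjusted p = 0.433).

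*H2-Eb1*, the beta chain of the I-E molecule, was at 6.06, 5.76 and 5.72 FPKM in WT and 7.28, 40.0 and 26.5 FPKM in *Hras*G12V mice. The groups did not overlap. The log2 fold change was 1.74 (standard error 0.59, 95% interval 0.34 to 3.15, limma adjusted p = 0.448). The alpha chain that would pair with it, *H2-Ea-ps*, is annotated as a polymorphic pseudogene and was listed at 0 in all 6 libraries. The classical chains differ in sequence between mouse strains, and how far the strain of each H2 allele bears on these FPKM was not tested.

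*Cd74*, on chromosome 18 (chr18:60803848-60812652), was the most abundant of the 8 genes in every library. It was at 26.5, 23.4 and 21.9 FPKM in WT and 28.7, 185 and 120 FPKM in *Hras*G12V mice, with no overlap between the groups. The mean was 111 ± 78.6 (SD, n = 3) against 23.9 ± 2.35 FPKM (SD, n = 3). The *Cd74* difference in mean log2 values was 1.85 (standard error 0.65, 95% interval 0.28 to 3.42, limma adjusted p = 0.464). *Ctss* was at 4.97, 4.79 and 3.14 FPKM in WT and 4.31, 21.9 and 18.8 FPKM in *Hras*G12V mice. Mouse 2276 was within the WT range. The log2 fold change of *Ctss* was 1.503 (standard error 0.61, 95% interval 0.04 to 2.97, limma adjusted p = 0.488).

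The peptide exchange gene *H2-DMa* was at 1.20, 1.54 and 1.60 FPKM in WT and 1.71, 5.84 and 4.56 FPKM in *Hras*G12V mice, and had the lowest fold of the 8 genes. The groups did not overlap, and the log2 fold change was 1.27 (standard error 0.44, 95% interval 0.21 to 2.32, limma adjusted p = 0.456). Its partner *H2-DMb1* was at 0.801, 0.793 and 0.735 FPKM in WT and 0.720, 6.09 and 4.71 FPKM in *Hras*G12V mice. Mouse 2276 had the lowest value of all 6 mice. The log2 fold change of *H2-DMb1* was 1.73 (standard error 0.74, 95% interval -0.04 to 3.49, limma adjusted p = 0.496). Of the 50-base stretches in the *H2-DMb1* transcript, 27.2% also occur in *H2-DMb2*, and how reads that match both were shared out is not stated, so the split between these paralogs is uncertain. The other 7 genes had no such stretch in common with another gene. In GENCODE, *H2-DMa* overlaps *Brd2*, *Ciita* overlaps *Dexi* and *H2-Eb1* overlaps an antisense gene, each on the opposite strand. On the same strand, *Ctss* and *H2-DMa* each overlap a non-coding gene or pseudogene and *Cd74* the microRNA gene *Mir5107*. How the counting treated strand and overlaps is not stated, so reads there may not be told apart.

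*Ciita*, the coactivator, had the lowest level and the largest fold. It was at 0.219, 0.201 and 0.196 FPKM in WT and 0.156, 3.06 and 2.13 FPKM in *Hras*G12V mice. Mouse 2276 was below every WT mouse. The log2 fold change was 2.00 (standard error 0.95, 95% interval -0.29 to 4.28, limma adjusted p = 0.539).

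**Figure D1:**
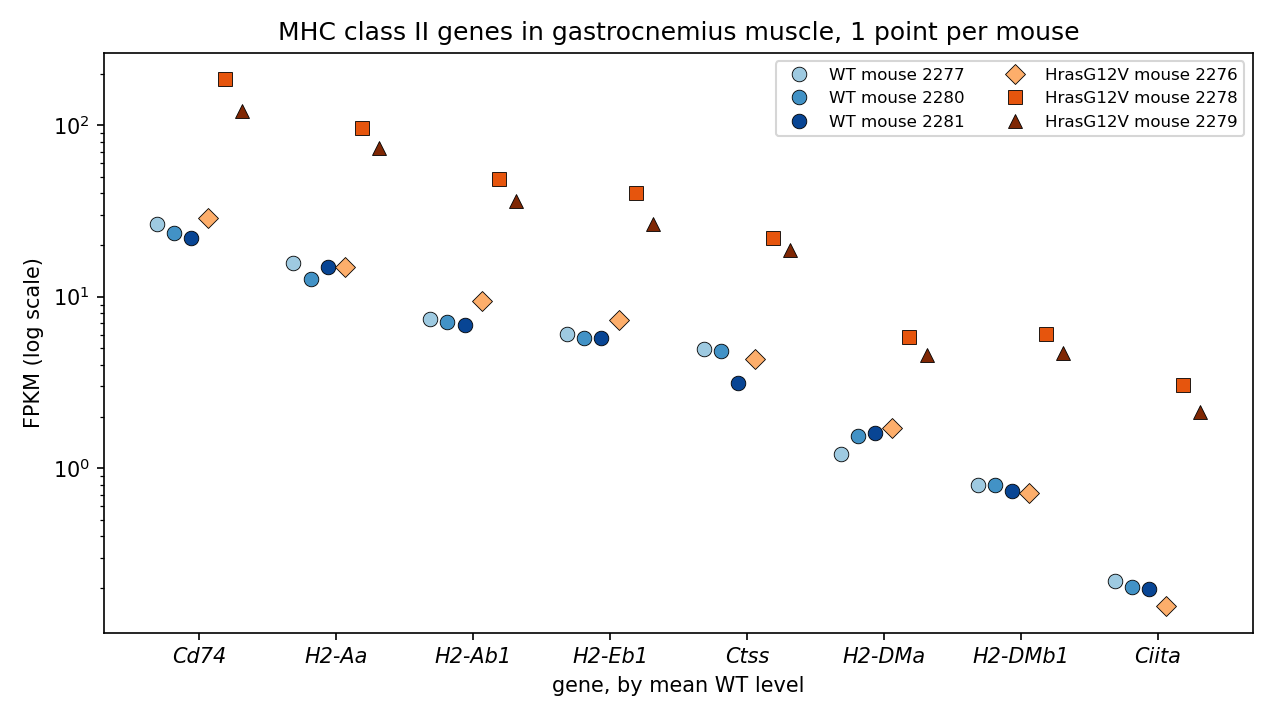
FPKM of the 8 MHC class II genes on a log scale, 1 point per mouse, with genes in the order of their mean WT level. Circles are the 3 WT mice, the diamond is *Hras*G12V mouse 2276, and the square and triangle are *Hras*G12V mice 2278 and 2279, which lie above the other 4 mice for every gene.

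By limma's adjusted p, 0 of the 8 genes differed between genotypes, against 0.0524% of all genes tested called higher and 0.0599% called in either direction. At an unadjusted p below 0.05, 6 of the 8 were higher, against 5.18% of all genes tested, and 0 lower, against 4.99%. The log2 fold change was above 0 for 8 of 8 genes, against 46.6% of all genes, and the median was 1.74 against -0.03 over all genes. For 4 of the 8 genes (*H2-Ab1*, *H2-Eb1*, *H2-DMa* and *Cd74*) the lowest *Hras*G12V mouse exceeded the highest WT mouse, against 8.11% of all genes, and for 0 every one was below, against 10.4%. All 8 genes passed the filter, but *Ciita*, with a WT mean of 0.206 FPKM, passed it only through mice 2278 and 2279. These counts therefore describe the 8 genes and are no independent support for a difference.

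The calls rested on single mice. Without *Hras*G12V mouse 2276, all 8 genes had an adjusted limma p below 0.05 (5.37% of all genes were called higher in that comparison, and 12.4% at an unadjusted p below 0.05), with log2 fold changes of 1.78 (*H2-DMa*) to 3.12 (*Ciita*) and a standard error of at most 0.24. With array weights, which count libraries less the more they stand apart, all 8 did too, against 3.3% of all genes (10.5% at an unadjusted p). Without WT mouse 2277, 1 gene (*H2-Ab1*) kept an unadjusted p below 0.05, against 2.43% of all genes. Without WT mouse 2280 or 2281, 0 of the 8 did, against 2.87% and 2.22%. Without *Hras*G12V mouse 2278 or 2279, 0 did, against 4.09% and 4.8%. With libraries rescaled to the same total FPKM or without moderation of the variances, 0 did, against 2.84% and 4.15%. By the adjusted p, 0 of the 8 passed in these 7 comparisons, against 0.0374% (without 2277), 0.0299% (2280), 0.0599% (2281, 2278 and 2279), 0.0449% (same total) and 0.00749% (no moderation) of all genes. Mouse 2276 set against the 3 WT mice alone, with the spread of the WT mice, gave a median log2 fold change of 0.15. In that comparison *H2-Ab1* (0.41, 95% interval 0.11 to 0.71, limma adjusted p = 0.059) and *H2-Eb1* (0.31, 95% interval 0.02 to 0.61, limma adjusted p = 0.0937) had an unadjusted p below 0.05, where 25.5% of all genes were called higher (17.4% by the adjusted p, which 0 of the 8 passed).

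**Figure D2:**
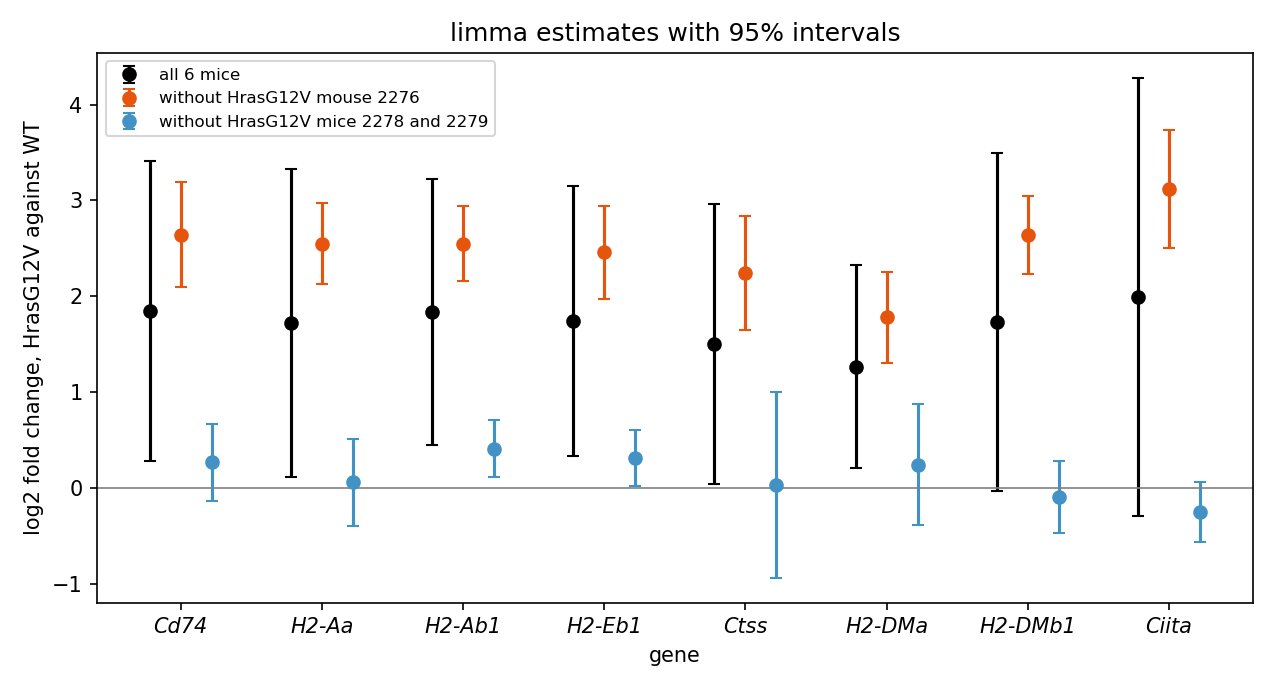
limma log2 fold changes of *Hras*G12V against WT with 95% intervals for each class II gene, from all 6 mice (black), without *Hras*G12V mouse 2276 (orange) and with mouse 2276 as the only *Hras*G12V mouse (blue). The intervals from all 6 mice are wide, from -0.29 to 4.28 for *Ciita*, and the orange and blue intervals do not meet for any gene.

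Both mice with high class II levels were male by *Ddx3y*, and mouse 2276 was female. Among females, the summed level was 62.9 FPKM in WT mouse 2277 and 67.3 FPKM in mouse 2276. Among males it was 56.3 and 54.9 FPKM in WT mice 2280 and 2281, against 408 and 287 FPKM in mice 2278 and 2279. With this reading of sex as a covariate, all 8 genes had an unadjusted limma p below 0.05 and 0 an adjusted one (6.29% and 0.0374% of all genes were called higher).

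The order of the levels was the same in every WT mouse: *Cd74*, *H2-Aa*, *H2-Ab1*, *H2-Eb1*, *Ctss*, *H2-DMa*, *H2-DMb1* and *Ciita*, with no overlap between neighbors. Among *Hras*G12V mice the ranges of all neighbors overlapped, but within each mouse the order held except that *H2-DMb1* was above *H2-DMa* in mice 2278 and 2279. Relative to *H2-Aa* in the same library, *Cd74* was at 1.47 to 1.92, *H2-Ab1* at 0.458 to 0.632 and *H2-Eb1* at 0.359 to 0.486 in all 6 mice. The chains and the invariant chain thus kept nearly the same proportions while their sum differed.

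*H2-DMa*, *H2-Ob* and *Ciita* did not keep those proportions, while *H2-DMb1* stayed at 0.0481 to 0.0638 of *H2-Aa* in all 6 mice. *H2-DMb1* was at 0.420 to 0.666 of the level of *H2-DMa* in the WT mice and mouse 2276, and at 1.04 and 1.03 of it in mice 2278 and 2279. *Ciita* was at 0.0104 to 0.0159 of the level of *H2-Aa* in those 4 mice and at 0.0316 and 0.0288 in mice 2278 and 2279. *H2-Ob* was at 0.129 to 0.216 of the level of *H2-DMa* in those 4 mice and at 2.31 and 2.13 in mice 2278 and 2279. These ratios were described after the values were seen and were not tested.

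**Figure D3:**
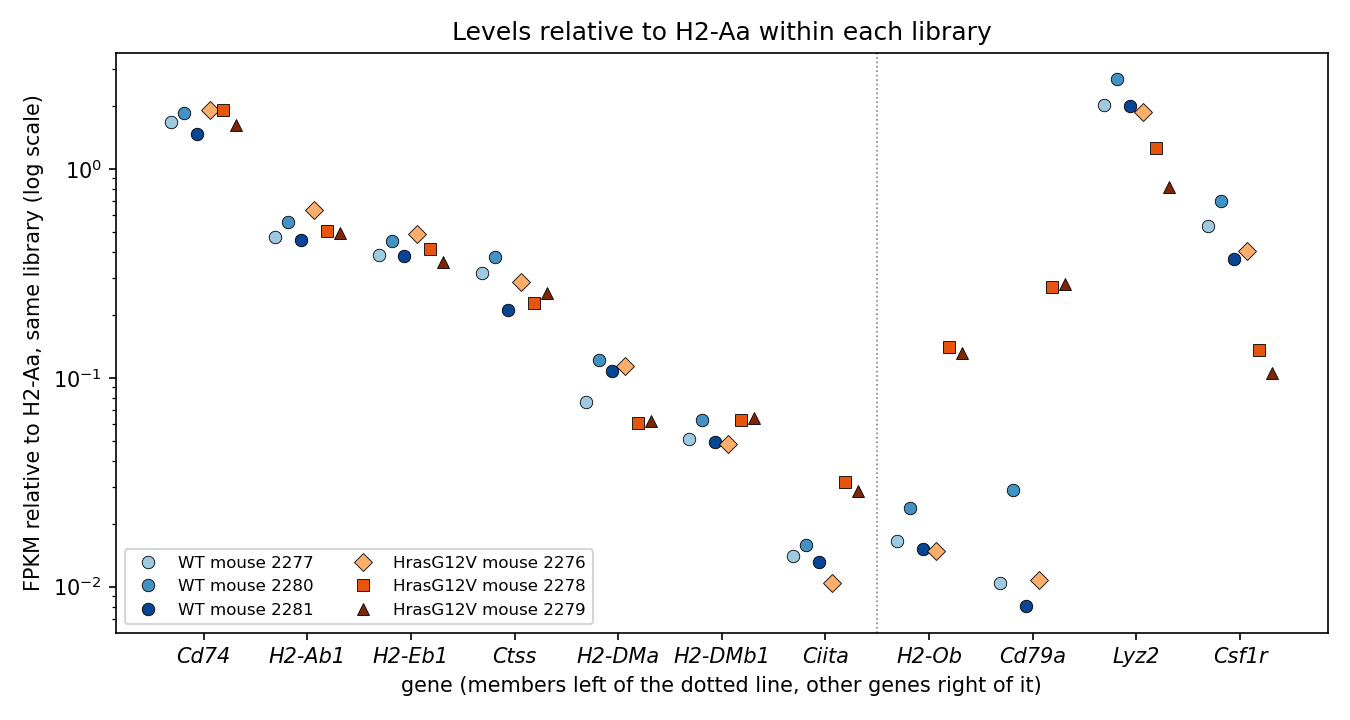
FPKM of each gene relative to *H2-Aa* in the same library, on a log scale, 1 point per mouse, with class II members left of the dotted line and other genes right of it. *Cd74*, *H2-Ab1* and *H2-Eb1* lie within a narrow band in all 6 mice, while *Ciita*, *H2-Ob* and the B cell gene *Cd79a* are higher, and the macrophage genes *Lyz2* and *Csf1r* lower, relative to *H2-Aa* in mice 2278 and 2279.

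Other class II genes followed the same mice. *H2-Ob* was at 0.224 to 0.302 FPKM in WT and 0.222, 13.5 and 9.74 FPKM in *Hras*G12V mice 2276, 2278 and 2279, a log2 fold change of 3.28 (standard error 1.37, 95% interval 0.01 to 6.55). *H2-Oa* was at 0 to 0.0506 FPKM in WT and 0, 3.39 and 3.35 FPKM in *Hras*G12V mice. *H2-DMb2* was at 0.111 to 0.434 FPKM in WT and 0.0871, 6.86 and 5.49 FPKM in *Hras*G12V mice. *H2-Eb2*, too low to be tested, was at most 0.0103 FPKM in WT and at 0.0325, 1.69 and 0.986 FPKM in *Hras*G12V mice. All 3 genes tested in this list of 5 passed the filter only through mice 2278 and 2279, so no count of calls over them is given.

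Cell type markers were read beside these values, since in bulk muscle more cells of a type and more RNA per cell cannot be told apart. B cell markers moved with the class II genes. Their summed level over 10 genes was 2.01 to 3.005 FPKM in WT and 3.63, 127 and 110 FPKM in *Hras*G12V mice 2276, 2278 and 2279. *Cd79a*, a chain of the B cell receptor, was at 0.120 to 0.367 FPKM in WT and 0.161, 26.4 and 20.9 FPKM in *Hras*G12V mice. *Blk* had the lowest log2 fold change of the list (2.97). *Cd37* was the most abundant by its mean over all 6 mice, but in mouse 2278 it was below *Cd79a* (21.5 against 26.4 FPKM). All but *Cd37* and *Cd79b* passed the filter on low values only through mice 2278 and 2279, so no count of calls is given.

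T cell markers and those of lymph node stroma and vessels were high in the same mice. The summed level of 8 T cell genes was 0.869 to 1.11 FPKM in WT and 1.26, 39.6 and 51.0 FPKM in *Hras*G12V mice. *Cd3e* was at 0.151 to 0.304 FPKM in WT and 0.225, 6.26 and 9.09 FPKM in *Hras*G12V mice. The 6 genes of lymph node stroma and vessels summed to 2.65 to 7.93 FPKM in WT and 6.97, 253 and 381 FPKM in *Hras*G12V mice. *Glycam1*, made by the high endothelial vessels through which lymphocytes enter lymph nodes, was at 0.0537 to 0.242 FPKM in WT and 0.186, 192 and 294 FPKM in *Hras*G12V mice. *Chst4*, of the same vessels, was listed at 0 in the WT mice and mouse 2276 and reached 1.43 and 2.40 FPKM in mice 2278 and 2279. All 6 genes were within the WT range in mouse 2276. Of these, *Glycam1*, *Cxcl13* and *Chst4* passed the filter on low values only through mice 2278 and 2279, as did all 8 T cell genes. The part of lymphocytes or lymph node tissue in the class II levels was not tested.

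The summed level of macrophage markers over 11 genes was 91.1 to 109 FPKM in WT and 116, 243 and 128 FPKM in *Hras*G12V mice 2276, 2278 and 2279. Of 10 tested, 1 (*C1qa*, log2 fold change 0.59) had an unadjusted limma p below 0.05, near the 5.18% of all genes called higher. *Csf1r*, the receptor that macrophages need to survive, was at 5.49 to 8.93 FPKM in WT and 6.05, 13.1 and 7.75 FPKM in *Hras*G12V mice, and *Emr1*, which encodes F4/80, at 2.01 to 2.76 against 1.31, 3.71 and 1.57 FPKM. *Lyz2*, the most abundant of the list, was at 29.9 to 34.1 FPKM in WT and 28.1, 122 and 60.6 FPKM in *Hras*G12V mice.

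Dendritic cell markers differed among themselves: 7 of 10 were above every WT mouse in both mice 2278 and 2279, as were 17.01% of all gene symbols. *Ccr7*, the receptor by which dendritic and naive T cells home to lymph nodes, was at 0.0384 to 0.0447 FPKM in WT and 0.128, 4.55 and 7.15 FPKM in *Hras*G12V mice (log2 fold change 3.81, 95% interval 0.73 to 6.90). *Siglech*, of plasmacytoid dendritic cells, was at 8.89 and 8.85 times the WT mean in mice 2278 and 2279. *Zbtb46*, which marks conventional dendritic cells and some endothelium, was at 2.87 to 3.24 FPKM in WT and 1.48, 2.92 and 2.70 FPKM in *Hras*G12V mice. *Clec9a*, of cross-presenting dendritic cells, was at 0.799 to 1.37 against 0.649, 1.52 and 1.12 FPKM. *Ccr7* and *Siglech* passed the filter only through mice 2278 and 2279.

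**Figure D4:**
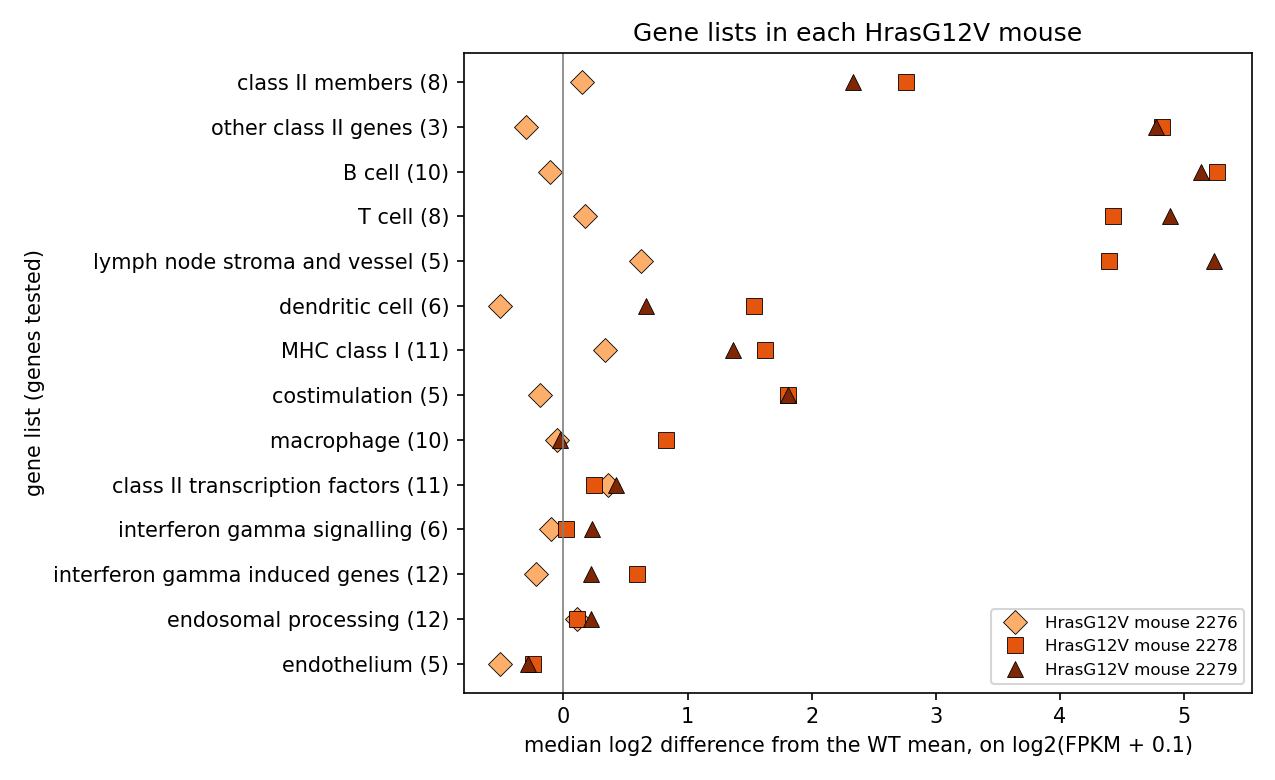
Median log2 difference from the WT mean, on log2(FPKM + 0.1), over the genes tested in each list, with 1 point per *Hras*G12V mouse and the number of genes in brackets. For the 8 class II genes the medians were 0.15, 2.76 and 2.33 in mice 2276, 2278 and 2279. In mice 2278 and 2279 they lay between the B and T cell lists, at 4.43 to 5.26, and the macrophage list, at 0.83 and -0.02. Most B cell genes and all T cell genes passed the filter only through mice 2278 and 2279, so the filter bears on their medians there.

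Mice 2278 and 2279 also differed from each other. All 8 class II genes were higher in mouse 2278, by 1.17 (*Ctss*) to 1.54 (*Cd74*) times. Of all genes tested, 48.2% were higher in mouse 2278 than in mouse 2279. The count was 9 of 10 for B cell genes, 10 of 11 for macrophage genes, 7 of 10 for dendritic cell genes and 4 of 4 for neutrophil genes. It was 1 of 8 for T cell genes, 1 of 11 for MHC class I genes and 0 of 6 for lymph node stroma and vessel genes. Genes of 1 list share their libraries, so these counts are not replicates.

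Of 11 transcription factors that act on class II genes, 3 were higher at an unadjusted limma p below 0.05, where 5.18% of all genes were, and 0 by the adjusted p. *Irf4* passed the filter on low values only through mice 2278 and 2279. For the DNA-binding partners of CIITA, the log2 fold changes from all 6 mice were 0.39 for *Rfx5*, -0.10 for *Rfxap*, -0.17 for *Rfxank*, 0.15 for *Nfya*, -0.10 for *Nfyb* and 0.08 for *Nfyc*. Without mouse 2276, *Rfx5* (0.52) and *Rfxank* (-0.43) passed an unadjusted p of 0.05, where 12.4% of all genes were called higher and 17.4% lower. The 3 called from all 6 mice were *Irf8* (1.84), *Spi1* (1.41) and *Irf1* (0.56), of which *Irf8* and *Spi1* are factors of B cells and myeloid cells. *Irf8* was at 1.75 to 1.87 FPKM in WT and 3.45, 9.21 and 9.86 FPKM in *Hras*G12V mice, above every WT mouse in all 3. *Irf4*, a lymphocyte factor, read 0.417 to 0.537 FPKM in WT and 0.391, 2.45 and 2.99 FPKM in *Hras*G12V mice and had a log2 fold change of 1.495 (95% interval -0.20 to 3.19).

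*Ifng*, which encodes the cytokine interferon gamma, was listed at 0 in the WT mice and mouse 2276 and was at 0.0509 and 0.0520 FPKM in mice 2278 and 2279. A listed 0 does not show that the transcript was absent. Of the 6 other genes of its signalling, 1 (*Socs1*, log2 fold change 0.87) was higher at an unadjusted p below 0.05, against 5.18% of all genes. The median log2 fold change was -0.07, and the lowest values were -0.29 (*Jak2*) and -0.25 (*Ifngr2*). Of 12 interferon gamma induced genes tested, 2 were higher, *Tap1* (1.36) and *Cxcl9* (1.24), against the same 5.18%, and the median was 0.33. *Gbp6* and *Gbp7* had the lowest values, -0.75 and -0.48. Without *Hras*G12V mouse 2276, 5 of the 12 were higher at an unadjusted limma p below 0.05, against 12.4% of all genes. By the adjusted p 2 were, against 5.37%.

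Of 12 endosomal genes for processing tested, 4 were higher and 2 lower at an unadjusted limma p below 0.05, against 5.18% and 4.99% of all genes, with a median log2 fold change of 0.34 and 0 calls by the adjusted p. *Ctse*, a cathepsin made by lymphoid and some epithelial cells, passed the filter only through mice 2278 and 2279 and had the highest value (2.71, 95% interval 0.71 to 4.70), at 0.138 to 0.190 FPKM in WT and 0.355, 3.64 and 3.14 FPKM in *Hras*G12V mice. *Sppl2a*, the protease that clears the last membrane fragment of the invariant chain, was at 31.6 to 35.6 FPKM in WT and 17.4, 22.3 and 25.0 FPKM in *Hras*G12V mice (log2 fold change -0.63, 95% interval -1.09 to -0.17). *March1*, a ubiquitin ligase that removes class II from the surface of B and dendritic cells, was at 0.300 to 0.675 FPKM in WT and 0.143, 2.94 and 1.78 FPKM in *Hras*G12V mice. Like *Ctse*, *March1* passed the filter only through mice 2278 and 2279. Its relative *March8* had a log2 fold change of -0.47. The other 3 called higher were *Ifi30*, a reductase that opens disulfide bonds of antigens (1.14, 1.69 and 1.95 times the WT mean in mice 2276, 2278 and 2279), *Lgmn*, an endopeptidase (2.05, 1.70 and 1.11 times), and *Ctsz* (1.36, 1.34 and 1.25 times). *Lgmn* and *Ctsz* were thus highest in mouse 2276, where class II levels were near WT.

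The genes whose profile over the 6 libraries was most like the median of the 8 class II genes were *Il2rg*, *Rgs14*, *Fermt3*, *Nckap1l*, *Chst3*, *P2ry13*, *Itgb2*, *Slfn2*, *Btk* and *Lcp1*. *Rgs14*, *P2ry13* and *Btk* passed the filter on low values only through mice 2278 and 2279. Likeness was the mean absolute difference in log2 from that median, each gene taken relative to its own WT mean, and ran from 0.12 (*Il2rg*) to 0.20 (*Lcp1*). *Il2rg*, the common chain of several interleukin receptors, was at 3.30 to 3.71 FPKM in WT and 3.53, 19.6 and 20.1 FPKM in *Hras*G12V mice. *Itgb2*, for the beta 2 integrin, is a leukocyte gene as well. The 8 genes set this median themselves. Each was therefore also compared with the median of the other 7, among genes outside those 7: *H2-Ab1*, *H2-Eb1*, *H2-Aa*, *Cd74* and *H2-DMb1* each ranked 1, *Ctss* 45, *Ciita* 62 and *H2-DMa* 142. These ranks are a description, over 6 libraries of which 2 carry most of the difference.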

How the data were processed

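The mRNA of 6 gastrocnemius muscles was sequenced from stranded libraries, reading 1 end of each fragment. According to the methods and the submitters' processing notes, the authors aligned reads with TopHat (GRCm38, mm10) and made FPKM with Cufflinks and Cuffnorm, which scales libraries to each other. Their versions, and the gene models, were not found in those sources. The deposited FPKM, 1 per gene symbol, were used as they stand. Whether low values rise in steps of a read was checked: the fullest interval of their ratios between libraries held 1.98% to 18.8% of genes, so no reads were recovered and no count model was used.

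Genes with a mean of at least 0.5 FPKM were compared as log2(FPKM + 0.1) with limma 3.58.1 in R 4.3.3 (trend, no covariate, two-sided), with Benjamini-Hochberg adjustment over all 13359 genes. Genotypes came from the sample labels. Gene positions came from GENCODE vM21 and promoters from RefSeq. Lists were described by counts and medians. The 8 genes and the lists were chosen with earlier results of these data known. Named genes are the 8, the 2 highest and 2 lowest log2 fold changes of each list, the most abundant gene of each cell type list, and the 10 most alike. Some genes that this rule names are not reported here. Others were named after their values were seen. Alternatives were other pseudocounts (1 and 0.01), filters, scalings, weights, moderation, a sex covariate and leaving out mice. Figures were made with matplotlib 3.10.9.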

Additional observations from a re-analysis of the deposited data

How the results depend on the processing

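No paired analysis was run because the sources used here do not say which mice shared a litter. The median log2 fold change of the 8 class II genes stayed above 0 throughout, from 1.22 (without *Hras*G12V mouse 2278) to 2.55 (without mouse 2276) with 1 mouse left out, and was 0.15 with mouse 2276 as the only *Hras*G12V mouse. Of the 8, 6 had an unadjusted limma p below 0.05, 0 with the same total FPKM or no moderation and 0 to 8 with mice left out. None had an adjusted one, but 8 had with array weights and 0 to 8 with mice left out. Over all genes, 8 passed the adjusted p, 5 with a pseudocount of 1, 1 without moderation, 572 with array weights and 7 to 4200 with mice left out. At an unadjusted p, 1358 genes passed, 712 with the same total FPKM, 3042 with array weights and 606 to 6312 with mice left out. With mouse 2276 as the only *Hras*G12V mouse, 10 log2 fold changes, of those of the 87 genes chosen by the rule on names, were past an unadjusted p of 0.05 in at least 1 fit and changed sign, and with mice left out they ran, lowest to highest, over *H2-Ob* (-0.17 to 5.004), *Icosl* (-0.74 to 2.31), *Cd79a* (-0.20 to 6.30), *Blk* (-0.32 to 4.61), *Cd8a* (-0.57 to 4.73), *Il2rg* (-0.0103 to 2.45), *Nckap1l* (-0.43 to 2.41), *Itgb2* (-0.0438 to 2.79), *Lcp1* (-0.0723 to 2.73) and *Cd3e* (-0.0048 to 4.55). The fits compared each time were that to all 6 mice and the alternative. Over all alternatives, a further 63 sign changes of these genes were of values past no threshold in either fit. With mouse 2276 as the only *Hras*G12V mouse, these included 2 of the 8 class II genes. *Ciita* had a log2 fold change of -0.25 there, against 2.00 from all 6 mice, and *H2-DMb1* of -0.09, against 1.73. The cause of these changes was not tested, beyond the absence of the mice left out. Precision is known only from 3 mice per genotype.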

Other observations

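The class II genes share 252 kb of chromosome 17, from *H2-Oa* to *H2-Ea-ps* (chr17:34092340-34344645, GRCm38), with genes of other roles, chosen here after the class II values were seen. *Brd2*, a chromatin reader made in all cells, overlaps *H2-DMa* on the opposite strand and was at 22.8 to 24.5 FPKM in WT and 24.5, 21.6 and 25.2 FPKM in *Hras*G12V mice 2276, 2278 and 2279 (log2 fold change 0.00396, 95% interval -0.36 to 0.37). *Psmb8* and *Psmb9*, subunits of the immunoproteasome, had log2 fold changes of 1.501 and 1.46. *Psmb8* was at 3.41 to 3.91 FPKM in WT and 6.91, 12.3 and 14.2 FPKM in *Hras*G12V mice, so that mouse 2276 was also above every WT mouse, and its 95% interval was 0.84 to 2.17.

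MHC class I genes, which serve presentation in nearly all cells, were higher in mice 2278 and 2279 too. Of 11 tested, 6 had a higher level at an unadjusted limma p below 0.05 (5.18% of all genes) and 0 by the adjusted p (0.0524%), with a median log2 fold change of 1.33. Without *Hras*G12V mouse 2276, 10 of the 11 were higher at an unadjusted limma p below 0.05, against 12.4% of all genes. By the adjusted p 10 were too, against 5.37%. *H2-Q6*, *H2-Q7* and *Nlrc5* passed the filter on low values only through mice 2278 and 2279. *H2-K1* was at 16.8 to 20.1 FPKM in WT and 29.3, 66.9 and 76.6 FPKM in *Hras*G12V mice, and *B2m*, the most abundant, at 78.4 to 108 and 129, 187 and 200 FPKM. *H2-Q7* (3.15) and *H2-Q6* (2.74) had the highest log2 fold changes and *Tapbp* (0.16) and *H2-T23* (0.68) the lowest. *Nlrc5*, the class I counterpart of *Ciita*, was at 0.101 to 0.164 FPKM in WT and 0.146, 1.66 and 1.88 FPKM in *Hras*G12V mice. Near-identical copies among the H2-Q and H2-T genes make the split of reads between them uncertain.

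Genes for costimulatory and coinhibitory surface molecules, which act beside class II, had log2 fold changes of 0.70 (*Cd274*, the inhibitory ligand PD-L1) and 0.81 (*Cd86*) to 1.28 (*Cd40*) and 1.30 (*Icosl*) over 5 genes tested, with an unadjusted limma p below 0.05 for *Cd274* alone (5.18% of all genes). Without *Hras*G12V mouse 2276, all 5 were higher at an unadjusted limma p below 0.05, against 12.4% of all genes. By the adjusted p all 5 were too, against 5.37%. *Cd40* passed the filter only through mice 2278 and 2279, as did *Ngp*, *Camp* and *Ltf* of the neutrophil genes. Neutrophil genes had the highest values for *Ngp* (4.08) and *Camp* (3.98) and the lowest for *Ltf* (2.44) and *Retnlg* (2.69). Of 5 endothelial genes, *Cdh5* (-0.66) and *Tie1* (-0.58) were lower at an unadjusted p below 0.05 (4.99% of all genes), while *Pecam1* and *Vwf* had log2 fold changes of -0.25 and 0.01.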
